A study of Rattus norvegicus with 44 samples.

Results

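The proteasome subunit genes were the genes of the deposited rat hippocampus tables whose symbol began with Psma, Psmb, Psmc, Psmd, Psme, Psmf or Psmg followed by a digit, without the immunoproteasome genes Psmb8, Psmb9 and Psmb10. The symbol pattern took 46 genes, and 45 of them reached a normalized read count of 10 or more in 6 or more of a region's libraries, 44 of the 20003 genes listed for CA1 and 45 of the 20050 listed for DG. Psma8, an alpha-type subunit known from the testis, stayed below that level in both regions. Psmb11, the thymus-type catalytic subunit, passed it in DG alone. Psmc3ip fits the symbol pattern but encodes a factor of meiotic recombination; leaving it out changed no count of called members.

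Polyadenylated RNA was sequenced from area CA1 and the dentate gyrus (DG) of 1 hippocampus from each of 22 male rats, which gave 44 libraries. The 8 young LPS rats, 5 to 7 months old, received lipopolysaccharide, a bacterial endotoxin that provokes peripheral inflammation, at 1 mg/kg intraperitoneally once a week for 7 weeks. The 6 aged vehicle rats, 14 to 16 months old, and the 8 young vehicle rats, 5 to 7 months old, received saline on the same schedule. Tissue was taken 48 hours after the last injection, the strain is not stated in the labels, and the tissue was dissected whole, so fewer cells of a type and less RNA per cell cannot be told apart. The series set LPS against young vehicle, age against young vehicle, and LPS against age. The labels number each rat, and both regions of a rat carry its number, which is used below to name a library.

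The proteasome is the main protease of the cytoplasm and nucleus and degrades proteins that carry chains of ubiquitin. Its barrel-shaped core particle is built of outer alpha rings, which gate the entry, and inner beta rings, which hold the catalytic sites. A regulatory particle caps the core: its base unfolds the substrate with a ring of ATPases, and its lid removes the ubiquitin chain. In neurons the proteasome is also known to act in synaptic plasticity, where protein breakdown accompanies protein synthesis.

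Promoter sequences are shown for the 4 members whose LPS against age contrast differed between CA1 and DG. They come from RefSeq (build GRCr8, which is not the rn6 build named for the read counts) and run from 250 bases before to 50 bases after the annotated start, 5′ to 3′ on the strand of the gene. Capitals mark each match to TGANNNNGC, a loose pattern for the core of the antioxidant response element, with each base marked N left free. The element is bound by NRF-type transcription factors that are known to act on proteasome genes. The loose pattern was searched on both strands, so that GCNNNNTCA also counts.
Psmb6, chr10:55737638-55737937, plus strand: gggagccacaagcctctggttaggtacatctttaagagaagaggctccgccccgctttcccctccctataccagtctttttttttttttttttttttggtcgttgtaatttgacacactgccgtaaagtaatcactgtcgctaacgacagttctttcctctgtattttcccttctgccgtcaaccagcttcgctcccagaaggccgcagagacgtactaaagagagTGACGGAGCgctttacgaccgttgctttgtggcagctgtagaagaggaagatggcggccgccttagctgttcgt
Psmd9, chr12:39018215-39018514, minus strand: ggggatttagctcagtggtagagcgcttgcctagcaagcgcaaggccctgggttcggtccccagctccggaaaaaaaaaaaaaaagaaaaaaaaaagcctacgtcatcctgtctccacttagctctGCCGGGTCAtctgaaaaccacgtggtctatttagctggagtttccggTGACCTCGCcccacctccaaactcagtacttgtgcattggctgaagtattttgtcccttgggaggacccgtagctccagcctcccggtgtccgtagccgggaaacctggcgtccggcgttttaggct
Psmc6, chr15:21022064-21022363, plus strand: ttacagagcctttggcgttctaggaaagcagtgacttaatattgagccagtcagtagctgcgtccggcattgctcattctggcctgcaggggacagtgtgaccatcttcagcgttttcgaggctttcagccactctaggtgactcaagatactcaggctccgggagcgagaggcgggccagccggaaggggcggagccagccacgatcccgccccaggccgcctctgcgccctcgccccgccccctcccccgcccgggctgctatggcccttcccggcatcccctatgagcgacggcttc
Psmg3, chr12:19923038-19923337, plus strand: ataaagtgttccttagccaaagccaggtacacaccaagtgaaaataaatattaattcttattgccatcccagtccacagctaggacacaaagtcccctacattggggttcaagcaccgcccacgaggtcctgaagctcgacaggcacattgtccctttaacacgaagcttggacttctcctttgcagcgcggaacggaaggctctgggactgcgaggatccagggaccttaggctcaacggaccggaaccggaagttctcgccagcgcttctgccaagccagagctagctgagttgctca
Psmb6 held 1 match, whose first base lay 24 bases before the start, and Psmd9 held 2, at 124 and 77 bases before it. Psmc6 and Psmg3 held none in this window. Among the 40 members with a promoter entry, 21 (52.5%) held the loose pattern, against 40.5% of all 33469 promoters of the same length. The CCAAT box, searched as CCAAT and ATTGG, stood in 20 of the 40 (50%), against 37.5% of all promoters. Members and all promoters were alike in length only and were not matched for base content or gene type. No enrichment is drawn from these shares. The matches are of letters, and no binding was measured.

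Each library held between 12292346 and 18749663 recovered reads in CA1 and between 12130182 and 23519791 in DG. The fewest in CA1 were those of aged vehicle 2532. This CA1 library stood apart from all others. It gave the highest or the lowest value of the 22 CA1 libraries for 26 of the 44 members (59.1%), and for 58.9% of all 14915 genes tested. The SD over members of their deviation from the CA1 mean was 0.98 on the log2 scale in that library, against 0.11 to 0.39 in the other 21. Subunits of the regulatory particle went opposite ways in it. The lid genes Psmd7 and Psmd6 had 3633 and 2615 normalized reads there, against 1571 to 1737 and 1199 to 1582 in the other 5 aged libraries. The ATPase gene Psmc5 and the base scaffold gene Psmd2 had 820 and 1723, against 1948 to 2433 and 3155 to 3808. The DG library of the same rat was at an extreme for 1 of 45 members. Marker genes of neurons summed to 169600 normalized reads in the CA1 library of aged 2532, against 52890 to 82090 in the other 21. Their mean deviation there was 0.42, against -0.10 to 0.20 in the others. The 6 interneuron markers had a mean deviation of -0.48 there, against -0.22 to 0.29 in the others. Their summed reads were not low, at 11750 against 8100 to 11930 in the others. Whether depth, RNA quality or cell makeup set the values of this library was not tested. Results that rest on the aged group in CA1 are therefore given with and without it.

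**Figure D1:**
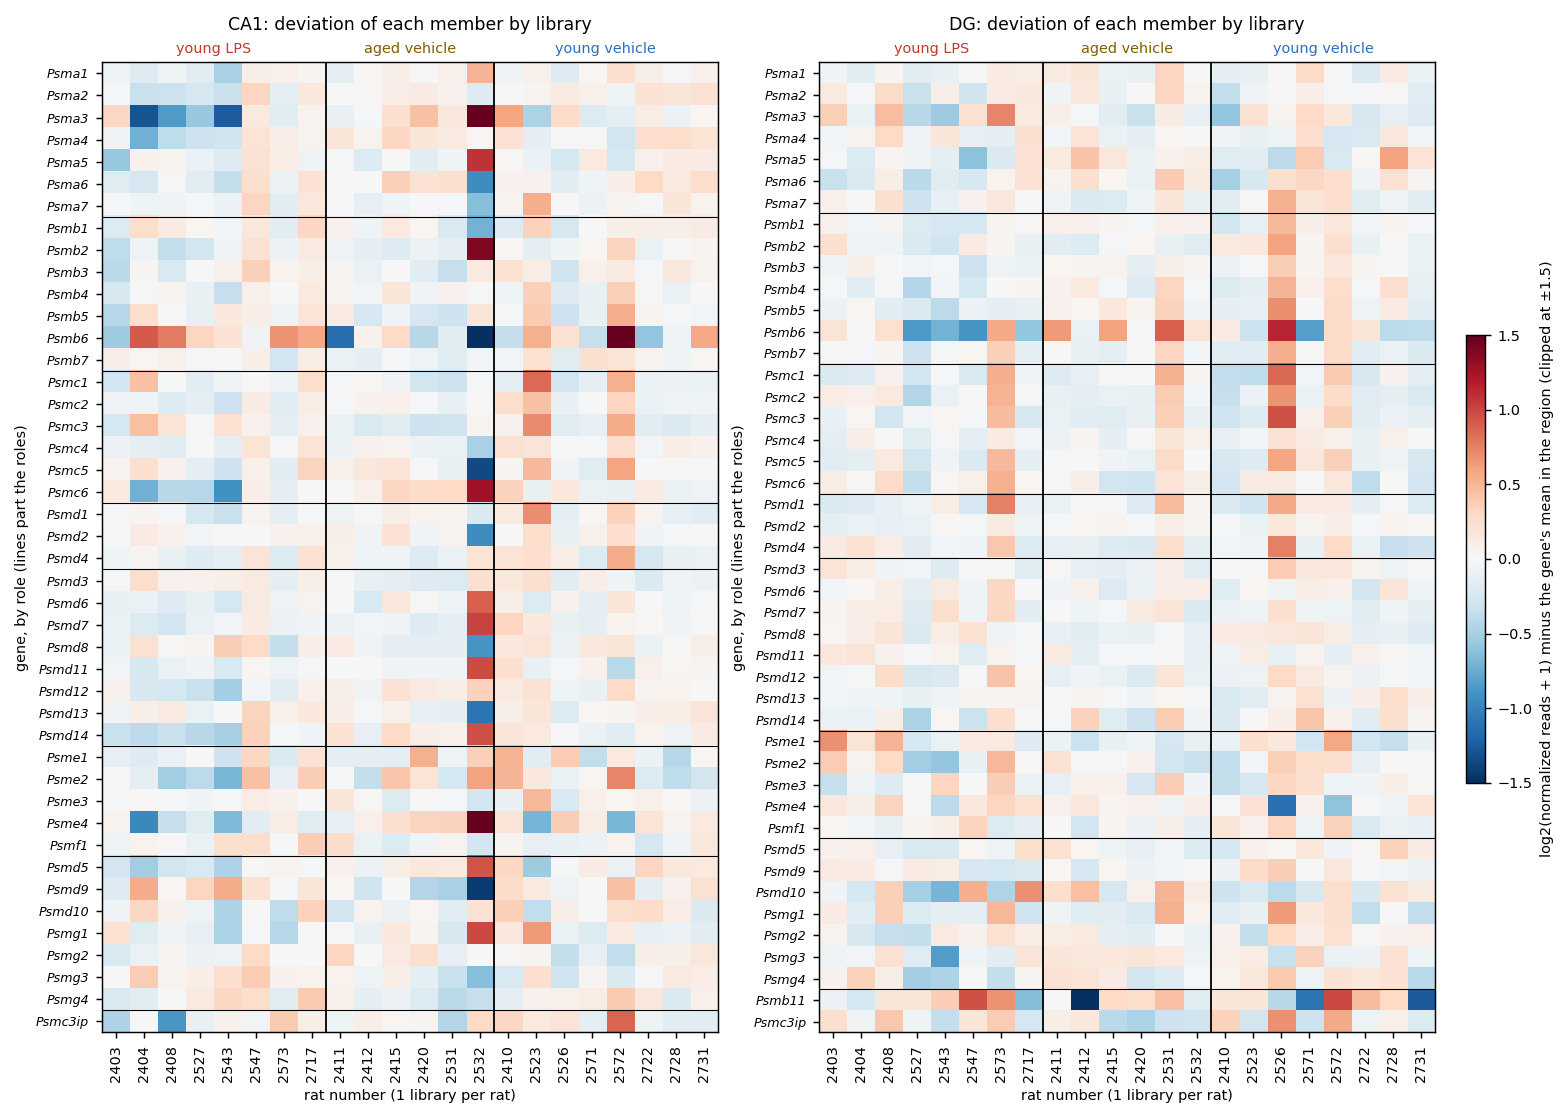
Deviation of every member in every library (columns, by rat number, young LPS, aged vehicle and young vehicle from left to right) from its mean over the 22 libraries of the region, on the log2(normalized reads + 1) scale, for CA1 (left) and DG (right). The column of aged 2532 in CA1 holds deep reds and blues side by side, while young vehicle 2526 in DG is red for most members of the beta ring, the ATPase ring and the base.

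The members together took a small and similar share of the reads in every group. In CA1 the share was 0.298% ± 0.023 in young LPS, 0.312% ± 0.014 in aged vehicle and 0.320% ± 0.019 in young vehicle libraries (SD, n = 8, 6 and 8). In DG it was 0.321% ± 0.032 in young LPS, 0.323% ± 0.024 in aged vehicle and 0.327% ± 0.036 in young vehicle libraries (SD, n = 8, 6 and 8). The median member also varied less between the libraries of a CA1 group than the median gene tested. The median coefficient of variation over members was 14.9% in young LPS, 17.3% in aged vehicle and 13.6% in young vehicle CA1 libraries. Over all genes tested the medians were 19.3%, 23.5% and 19.0%. Members and all genes were not matched for read level, so a part of level in this difference was not tested. The steadiest members were Psmd2, a large scaffold protein of the base, at 3.99% in young LPS CA1, and Psmd13, a lid subunit, at 2.43% in aged vehicle DG. The most variable in aged vehicle CA1 were Psma3, an alpha ring subunit, at 115%, and Psme4, an activator, at 62.0%, both with library 2532 far above the rest. In young vehicle CA1 it was Psmb6, which carries the caspase-like site, at 60.6%.

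Levels by role are given as means ± SD of normalized reads over 8 young LPS, 6 aged vehicle and 8 young vehicle libraries; they are not divided by transcript length, so levels of different genes cannot be compared. Of the catalytic subunits, Psmb5, which carries the chymotrypsin-like site, averaged 1901 ± 271 in young LPS, 1763 ± 261 in aged vehicle and 1976 ± 402 in young vehicle CA1. Psmb7, with the trypsin-like site, averaged 1643 ± 140, 1519 ± 61.8 and 1698 ± 174 in the same 3 groups. Psmb6 averaged 61.7 ± 18.8 in young LPS, 33.9 ± 19.0 in aged vehicle and 59.2 ± 35.8 in young vehicle CA1, and its aged value in library 2532 was 4.38. The groups of all 3 catalytic subunits overlapped, and over the 3 comparisons in CA1 the log2 changes ran from -0.15 to 0.11 for Psmb5 and from -0.16 to 0.11 for Psmb7. RefSeq lists genes with the symbols Psmb6-ps1, Psmb6-ps2 and Psmb6l1, and how the counting placed reads shared with them is not given in the sources used here. Such copies by symbol exist for 19 of the 45 members (52 copies in all), Psmb6, Psma3, Psmc6, Psmd12 and Psmd14 among them, so the values of these members are uncertain where copies share reads.

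Psmd4, the ubiquitin receptor of the base, averaged 1314 ± 159 normalized reads in young LPS, 1312 ± 134 in aged vehicle and 1409 ± 282 in young vehicle CA1. In DG it averaged 1483 ± 217 in young LPS, 1347 ± 180 in aged vehicle and 1476 ± 419 in young vehicle libraries. Its log2 changes lay between -0.09 and -0.00 in CA1 and between -0.10 and 0.14 in DG. The activators that can replace the regulatory particle were all measured. Psme1, a subunit of the interferon-inducible activator, averaged 544 ± 84.5 in young LPS, 595 ± 132 in aged vehicle and 574 ± 137 in young vehicle CA1. Its partner subunit Psme2 averaged 52.2 ± 14.9, 61.0 ± 16.3 and 59.6 ± 17.5 in these groups. Psme3, the nuclear activator, averaged 1339 ± 55.7, 1288 ± 150 and 1374 ± 223 in them. None of these 3 activator subunits passed the test in any comparison: over the 3 comparisons in CA1 the log2 changes ran from -0.12 to 0.06 for Psme1, from -0.23 to 0.04 for Psme2 and from -0.09 to 0.06 for Psme3. Psme4, the large single-chain activator, averaged 553 ± 127 in young LPS, 1001 ± 621 in aged vehicle and 662 ± 164 in young vehicle CA1, and the spread of the aged group came from 2256 in library 2532 against 608 to 839 in the other 5. Psmf1, an inhibitor of the core particle, averaged 624 ± 77.6 in young LPS, 566 ± 80.4 in aged vehicle and 566 ± 52.7 in young vehicle CA1, with log2 changes from -0.01 to 0.14.

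The assembly chaperones guide the rings together and leave the finished particle. Of the core chaperones in CA1, Psmg1 averaged 341 ± 54.0 in young LPS, 424 ± 157 in aged vehicle and 384 ± 84.0 in young vehicle libraries. Psmg2, its partner in the early alpha ring, averaged 177 ± 19.6, 192 ± 22.5 and 173 ± 23.9 in these groups. Psmg4 averaged 186 ± 31.3, 155 ± 19.3 and 184 ± 23.9 in them. Their groups overlapped. Of the chaperones of the base, Psmd5 averaged 397 ± 59.5 in young LPS, 548 ± 164 in aged vehicle and 481 ± 83.1 in young vehicle CA1, and Psmd10 averaged 63.3 ± 12.6, 62.4 ± 7.81 and 67.4 ± 11.3. Psmb11 in DG was at 14.5 ± 5.48 in young LPS, 12.1 ± 4.75 in aged vehicle and 12.9 ± 6.73 in young vehicle libraries, close to the level that let it pass.

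No single member passed the threshold for LPS treatment in CA1, and most members lay slightly below young vehicle. Of the 44 members, 34 (77.3%) had a log2 change below 0 (33 of 43 without Psmc3ip), against 47.8% of all genes tested, and the median change was -0.08, against 0.01 over all genes. All 7 alpha ring members and all 3 non-ATPase base members were on the negative side, as were 5 of 7 in the beta ring, 5 of 6 ATPases and 6 of 8 lid members, while 4 of the 7 assembly chaperones were positive. Members varied together between libraries, so these counts are not 44 separate observations. By limma with Benjamini-Hochberg adjustment over all genes, 0 of 44 members were called (background 0%), and 3 (6.82%) had an unadjusted p below 0.05, against 6.87% of all genes. With aged 2532 out of the fit, which shares its estimate of spread over the groups, 7 members and 13.2% of all genes had one. edgeR and DESeq2 on the recovered reads also called 0.

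The mean deviation over members ran from -0.18 to 0.15 with a median of -0.08 in young LPS libraries, and from -0.06 to 0.18 with a median of 0.02 in young vehicle libraries, so the groups overlapped widely. The lowest was young LPS 2543, which also had the highest dentate granule markers of the CA1 libraries (mean deviation 1.00). The next lowest, young LPS 2403 at -0.12, had the lowest of these markers (mean deviation -2.285). With a dissection score as a term in the fit, from CA1 pyramidal minus dentate granule markers, the members' median was -0.09 and 0 were called. Psmd12, a scaffold subunit of the lid, ran from 902 to 1361 with a median of 1127 normalized reads in young LPS and from 1197 to 1572 with a median of 1333 in young vehicle libraries. Most LPS libraries lay below the lowest vehicle library, but 3 did not, and the change was -0.24 (SE 0.09, limma adjusted p = 0.654). Psma2, of the alpha ring, ran from 593 to 934 with a median of 655 in young LPS and from 714 to 881 with a median of 809 in young vehicle libraries (log2 change -0.22, SE 0.10, limma adjusted p = 0.654). Psma4, its neighbour in the ring, ran from 672 to 1276 with a median of 979 in young LPS and from 911 to 1324 with a median of 1195 in young vehicle libraries (log2 change -0.24, SE 0.11, limma adjusted p = 0.654). For both genes some LPS libraries lay within the vehicle range. Psmd5, a chaperone of the base, ran from 318 to 474 with a median of 384 in young LPS and from 315 to 571 with a median of 500 in young vehicle libraries (log2 change -0.27, SE 0.14, limma adjusted p = 0.654). No member was free of overlap between the groups (background 0.0134%).

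No member passed the threshold for age in CA1 either. Of the 44 members, 17 were above and 27 (61.4%) below young vehicle, against 49.6% of all genes below, and the median was -0.09, against 0.00 over all genes. The alpha ring median was 0.07 and the lid median 0.06, the beta ring median -0.15 and the ATPase median -0.19. Without aged 2532 the medians were -0.02 in the alpha ring and -0.06 in the lid (6 of 8 members negative), so both changed sign, and -0.17 in the beta ring and -0.11 among ATPases. Over all members the median was then -0.07, and 12 were positive. limma called 0 of 44 members (background 0.0134%), as did edgeR and DESeq2, and 5 (11.4%) had an unadjusted p below 0.05, against 12.6% of all genes. Without aged 2532 this was 1 member, against 6.06% of all genes. No member was free of overlap (background 0.235%).

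Psmd9, a chaperone that holds ATPases during assembly of the base, ran from 156 to 432 with a median of 329 normalized reads in aged vehicle and from 381 to 576 with a median of 454 in young vehicle libraries. Most aged libraries lay below all vehicle libraries, and library 2532 was the lowest of all. On the log2 scale the change was -0.55 (SE 0.17, limma adjusted p = 0.393), and -0.35 without aged 2532. Psmb6 ran from 4.38 to 56.3 with a median of 37.3 in aged vehicle and from 30.1 to 140 with a median of 48.2 in young vehicle libraries (log2 change -0.94, SE 0.41, limma adjusted p = 0.393, and -0.47 without aged 2532). Psmd8, a lid subunit, ran from 576 to 1159 with a median of 971 in aged vehicle and from 995 to 1230 with a median of 1158 in young vehicle libraries (log2 change -0.28, SE 0.13, limma adjusted p = 0.393, and -0.15 without aged 2532). All 3 changes were smaller without that library. Psmc4, an ATPase, ran from 951 to 1393 with a median of 1259 in aged vehicle and from 1299 to 1594 with a median of 1410 in young vehicle libraries (log2 change -0.20, SE 0.09, limma adjusted p = 0.393, and -0.13 without aged 2532).

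Young LPS against aged vehicle in CA1 was the one comparison within a region in which members passed the threshold. Psmc6, Psmd14 and Psmd12 were lower and Psmd9 was higher in young LPS than in aged vehicle libraries. These 4 of 44 members are 9.09%, beside a background of 8.73% of all genes called, so the share of calls was near that of genes in general. A further 8 members had an unadjusted p below 0.05, in all 12 (27.3%), against 35.8% of all genes. Of the 44 members, 24 (54.5%) were lower in young LPS, against 48.0% of all genes, and the median was -0.06. Without aged 2532, 22 were higher and the median was -0.00, with 12 members and 24.7% of all genes at an unadjusted p below 0.05. The young LPS and aged vehicle libraries are those of the comparisons above, which also share the young vehicle libraries, so the 3 comparisons are not independent. No member was free of overlap between the groups (background 0.838%).

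Psmc6, an ATPase of the base, ran from 559 to 1167 with a median of 875 normalized reads in young LPS and from 1045 to 2532 with a median of 1286 in aged vehicle libraries. The 4 LPS libraries 2404, 2408, 2527 and 2543 lay at or below 791, and library 2532 was far above all others, where the next highest CA1 library of any group, young vehicle 2410, had 1335. On the log2 scale the change was -0.66 (SE 0.18, limma adjusted p = 0.0490), and without aged 2532 it was -0.48 (SE 0.15, limma adjusted p = 0.121). Psmd14, the lid enzyme that cuts the ubiquitin chain from the substrate, ran from 627 to 1133 with a median of 706 in young LPS and from 814 to 1734 with a median of 989 in aged vehicle libraries. Most LPS libraries lay below the lowest aged library. On the log2 scale the change was -0.47 (SE 0.14, limma adjusted p = 0.0490), and without aged 2532 it was -0.33 (SE 0.12, limma adjusted p = 0.130).

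Psmd12 ran from 902 to 1361 with a median of 1127 in young LPS and from 1239 to 1638 with a median of 1398 in aged vehicle libraries. On the log2 scale the change was -0.31 (SE 0.10, limma adjusted p = 0.0490), and -0.27 (SE 0.09, limma adjusted p = 0.128) without aged 2532, so the size of this change rested little on that library while its call did. Psmd9 ran from 369 to 623 with a median of 485 in young LPS and from 156 to 432 with a median of 329 in aged vehicle libraries. On the log2 scale the change was 0.64 (SE 0.17, limma adjusted p = 0.0490), and 0.44 (SE 0.13, limma adjusted p = 0.121) without aged 2532. The 3 lower members and Psmd9 thus kept their direction without the library, and none of the 44 members was called without it, as was true of all 14875 genes then tested. Calls at adjusted p = 0.0490 were lost when any of 15 single libraries was left out, with adjusted p up to 0.130.

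Other members had larger differences but did not pass. Psma3, of the alpha ring, ran from 170 to 517 with a median of 326 in young LPS and from 386 to 2937 with a median of 481 in aged vehicle libraries; the change on the log2 scale was -1.04 (SE 0.34, limma adjusted p = 0.0535), and -0.60 without aged 2532. Library 2532 held more than 5 times the 567 of the next aged library. Psme4 had a change of -0.73 (SE 0.24, limma adjusted p = 0.0513), and -0.47 without aged 2532. Psmb6 had the largest positive change of the members, 1.11 (SE 0.41, limma adjusted p = 0.0678), and 0.63 without aged 2532. The alpha ring subunit Psma4 had a difference of -0.33 (SE 0.12, limma adjusted p = 0.0719), which was -0.35 without aged 2532. The chaperones Psmd5 and Psmg3 differed by -0.43 (SE 0.15) and 0.34 (SE 0.12), and by -0.29 and 0.24 without aged 2532. The lid subunits Psmd13 and Psmd8, at 0.28 (SE 0.13) and 0.27 (SE 0.13), completed the 12 members with an unadjusted p below 0.05. Both lost it without aged 2532, at 0.10 and 0.14, and so did Psmb6, as no beta ring member had one then. By role, 6 of 7 alpha ring members were lower in young LPS (median -0.17) and 5 of 7 beta ring members higher (median 0.11); without aged 2532 these were 5 of 7 (median -0.18) and 6 of 7 (median 0.11). In the lid 5 of 8 members were lower (median -0.20) and 4 of 6 ATPases were higher (median 0.11), but without aged 2532 the lid was at 4 of 8 lower (median -0.02) and the ATPases at 3 of 6 higher (median -0.01).

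**Figure D2:**
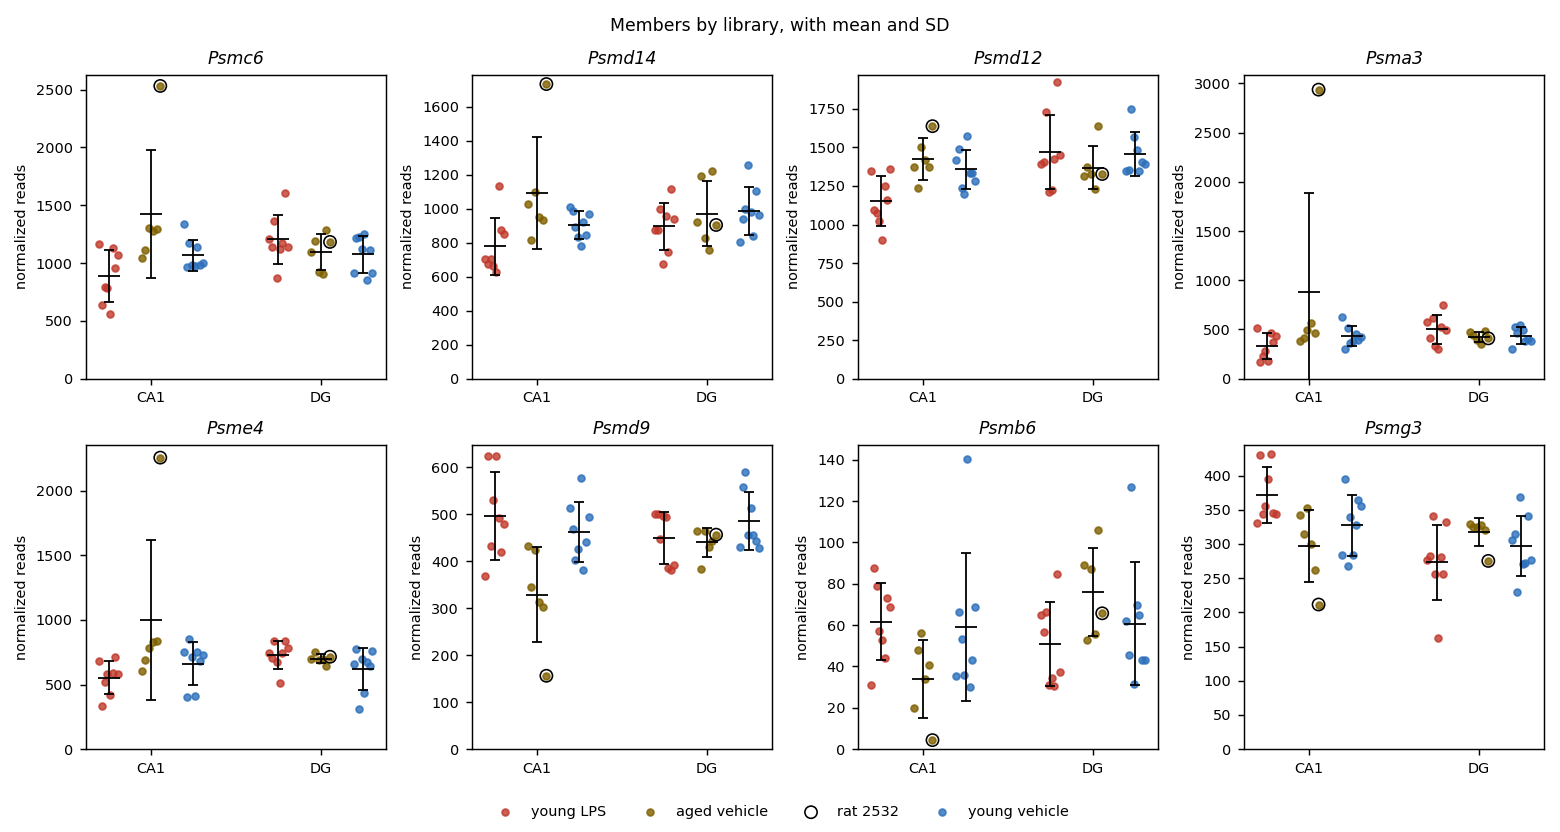
Normalized reads (linear axes from 0) of 8 members in each library of CA1 and DG, young LPS left of aged vehicle left of young vehicle; horizontal lines are means and bars are SD (n = 8, 6 and 8), and circles mark the libraries of aged rat 2532. In CA1 the circled library is the highest for Psmc6, Psmd14, Psmd12, Psma3 and Psme4 and the lowest for Psmd9, Psmb6 and Psmg3, whereas in DG the library of the same rat is the lowest aged library for Psmg3 and lies among the others for the rest.

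**Figure D3:**
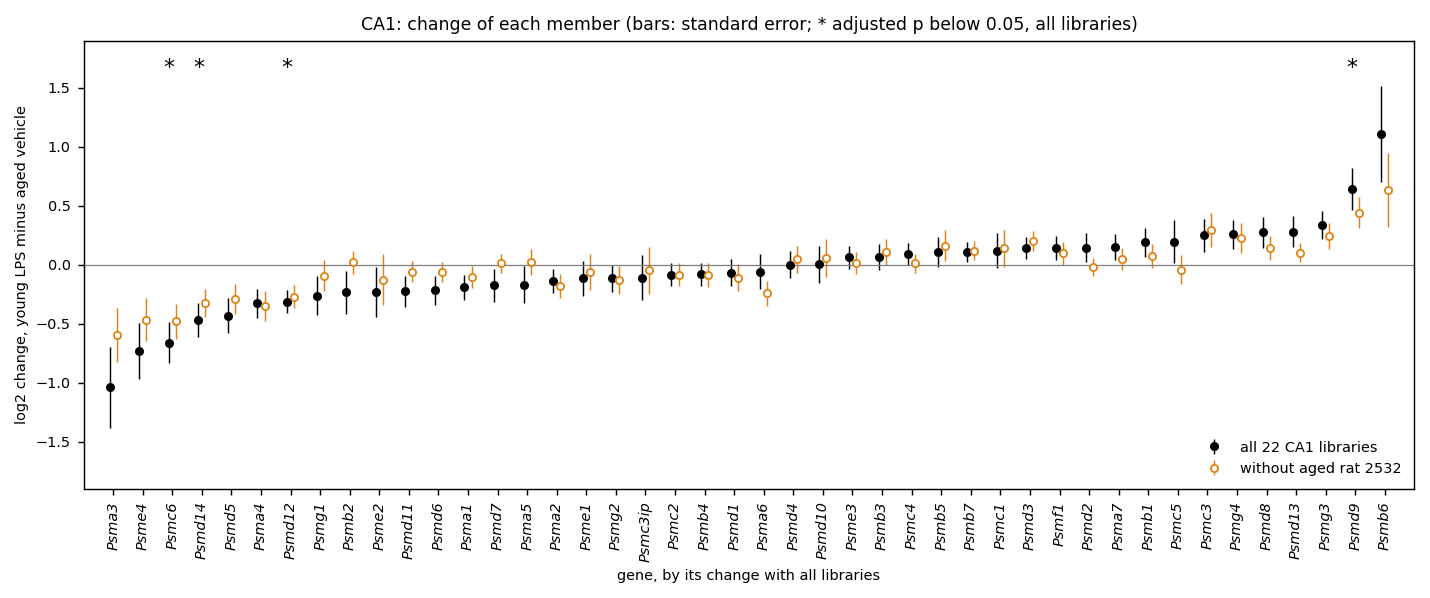
Log2 change of each of the 44 members in CA1, young LPS minus aged vehicle, ordered by size, with all 22 CA1 libraries (filled) and without aged 2532 (open); bars are standard errors and asterisks mark an adjusted p below 0.05. The outermost members, from Psma3 at -1.04 to Psmb6 at 1.11, move towards 0 without the library, while Psmd12 keeps -0.27 of -0.31.

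In DG no member passed the threshold in any comparison, by limma, edgeR or DESeq2. For LPS against young vehicle, limma called 0 of 45 members (background 0.0134%) and 1 member (2.22%) had an unadjusted p below 0.05, against 7.53% of all genes. The members' median change was -0.04, with all 7 beta ring members and 28 of all 45 (62.2%) below 0, against 51.2% of all genes. Psmb5, the chymotrypsin-like subunit, ran from 1429 to 1919 with a median of 1717 normalized reads in young LPS and from 1678 to 3059 with a median of 1828 in young vehicle DG (log2 change -0.22, SE 0.10, limma adjusted p = 0.628). The top vehicle library was 2526, and the groups overlapped. Psmb4, a structural beta subunit, ran from 1247 to 1753 with a median of 1658 in young LPS and from 1470 to 2425 with a median of 1731 in young vehicle DG (log2 change -0.19, SE 0.10, limma adjusted p = 0.671). Psmb2, of the same ring, differed by -0.17 on the log2 scale (SE 0.09, limma adjusted p = 0.703), and Psme4 by 0.28 (SE 0.14, limma adjusted p = 0.671). Psme4 was lowest in vehicle libraries 2526 and 2572, in which the beta ring was high. Without these 2 libraries, an alternative chosen after seeing the data, the members' median was 0.05, and the changes were -0.09 for Psmb5, -0.09 for Psmb4, -0.06 for Psmb2 and 0.04 for Psme4. Marker genes of meninges and blood were also high in both libraries (mean deviations of 1.38 and 2.32 in 2526 and of 1.6 and 1.5 in 2572). Only 2 of the 5 meningeal markers were listed for DG. They were highest in aged vehicle 2532 (mean deviation 1.80), where the mean deviation of the members was -0.04. The part of these markers in the result was not tested. No member was free of overlap (background 0.0403%).

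For age in DG, limma called 0 of 45 members (background 0.0134%), and 1 (2.22%) had an unadjusted p below 0.05, against 2.99% of all genes. The median was -0.01. Psmb2 ran from 691 to 816 with a median of 724 normalized reads in aged vehicle and from 740 to 1209 with a median of 849 in young vehicle DG (log2 change -0.23, SE 0.10, limma adjusted p = 1.00). Psmd8 (log2 change -0.14, SE 0.08), the lid subunit Psmd3 (log2 change -0.14, SE 0.08) and Psmc3ip (log2 change -0.31, SE 0.19) followed, each at a limma adjusted p of 1.00. No member was free of overlap (background 0.0738%).

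For young LPS against aged vehicle in DG, limma called 0 of 45 members (background 0.0134%), 4 (8.89%) had an unadjusted p below 0.05, against 9.10% of all genes, and the median was 0.00. Psmb5 ran from 1429 to 1919 with a median of 1717 in young LPS and from 1806 to 2380 with a median of 1950 in aged vehicle DG (log2 change -0.24, SE 0.11, limma adjusted p = 0.489). Psmb6 ran from 30.4 to 84.5 with a median of 47.2 in young LPS and from 52.8 to 106 with a median of 76.4 in aged vehicle DG (log2 change -0.63, SE 0.27, limma adjusted p = 0.489). Both were lower in LPS on average, and in both the groups overlapped. Psma6, of the alpha ring, differed by -0.26 on the log2 scale (SE 0.12, limma adjusted p = 0.524) and Psme1 by 0.29 (SE 0.14, limma adjusted p = 0.546). No member was free of overlap (background 0.443%).

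Whether the LPS against age contrast differed between the regions was tested on CA1 minus DG within each rat, over 14637 genes that passed the filter in both. Psmb6, Psmg3 and Psmd9 had a more positive contrast in CA1, and Psmc6 a more negative one. These 4 of 44 members are 9.09%, beside a background of 8.98% of all genes. Below 0 were 21 (47.7%), against 47.5% of all genes, and 10 (22.7%) had an unadjusted p below 0.05, against 32.6% of all genes. For Psmb6 the contrast was 1.11 in CA1 and -0.63 in DG, a difference of 1.73 (SE 0.47, limma adjusted p = 0.0382). Psmg3, a chaperone of the alpha ring, ran from 331 to 431 with a median of 350 normalized reads in young LPS and from 211 to 352 with a median of 307 in aged vehicle CA1. In DG it ran from 162 to 341 with a median of 279 in young LPS and from 275 to 329 with a median of 325 in aged vehicle libraries. LPS thus lay higher than aged on average in CA1 and lower in DG, and the difference was 0.58 (SE 0.17, limma adjusted p = 0.0413). Psmd9 differed by 0.62 (SE 0.19, limma adjusted p = 0.0482) and Psmc6 by -0.79 (SE 0.21, limma adjusted p = 0.0380). Without rat 2532 the differences were 1.29 for Psmb6, 0.52 for Psmg3, 0.41 for Psmd9 and -0.63 for Psmc6, with limma adjusted p of 0.112 to 0.136, and 0 members were called. Without a block for the rat 6 members were called, where 13.1% of all genes were. With the rat as a random block 6 were called, where 15% of all genes were.

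The difference between regions was called for 0 of 44 members for LPS against young vehicle (background 0.00683%), where 4 (9.09%) had an unadjusted p below 0.05, against 13% of all genes. Of the 44, 27 (61.4%) had a difference below 0, against 47.7% of all genes. The smallest p there belonged to Psmc6 (difference -0.46, SE 0.20, limma adjusted p = 0.372), Psma4 (-0.33, SE 0.15, limma adjusted p = 0.375), Psma2 (-0.30, SE 0.14, limma adjusted p = 0.375) and Psmg3 (0.33, SE 0.15, limma adjusted p = 0.379). It was called for 0 of 44 for age (background 0%), where 2 (4.55%) had an unadjusted p below 0.05, against 5.21% of all genes. Below 0 were 24 of the 44 (54.5%), against 49.9% of all genes, and the smallest p belonged to Psmb6 (difference -1.33, SE 0.47), Psmd9 (-0.42, SE 0.19), Psmd10 (-0.39, SE 0.20) and Psmb2 (0.34, SE 0.22), all at a limma adjusted p of 0.735. Without rat 2532 these were -0.89, -0.21, -0.46 and 0.07.

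The members varied together from library to library, in DG most of all within the ATPase ring. Over the 22 DG libraries the median Pearson r of the 990 pairs of members was 0.32, against -0.00 for pairs of all genes. It was 0.76 for the 15 pairs of ATPases, 0.70 for the 3 pairs of non-ATPase base members, 0.65 for the 21 pairs of the beta ring and 0.53 for the 21 pairs of the alpha ring. It was lower in the lid (0.24), among assembly chaperones (0.13) and among the activators and the inhibitor (-0.06). In CA1 the median over 946 pairs was 0.17 with all libraries. By role it was then 0.48 among non-ATPase base members, 0.34 in the beta ring, 0.30 in the lid, 0.29 among ATPases and 0.17 in the alpha ring. Without aged 2532 the median over all pairs was 0.25. By role it was then 0.59 among ATPases, 0.59 among non-ATPase base members, 0.46 in the beta ring, 0.43 in the alpha ring and 0.30 in the lid. The pairs share libraries, depth and scaling, so these values are descriptions.

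A few DG libraries were high for many members at once. Young vehicle 2526 was at an extreme for 22 of 45 members (48.9%), against 28.7% of all genes, and had the highest share of reads in members, 0.408%. It had, for example, 4461 normalized reads of the ATPase Psmc3 and 5021 of the ATPase Psmc1, where the young vehicle medians were 2123 and 2594. Aged vehicle 2531 was above the other 5 aged libraries for 30 of 45 members, and young LPS 2573 above the other 7 LPS libraries for 21 of 45. The share of all genes above their group in these libraries was not counted, so these counts are not set against genes in general. Over all 22 DG libraries, however, young LPS 2573 was at an extreme for 9 members (20%), against 16.6% of all genes, and aged vehicle 2531 for 3 (6.67%), against 6.04%. Summed blood markers were 5518 in young LPS 2573, 8270 in aged vehicle 2531, 16970 in young vehicle 2526, 8219 in young vehicle 2572 and 1062 in the lowest DG library. In aged vehicle 2532 they were 5208, where the mean deviation of the members was -0.04. Other markers parted young LPS 2573, aged vehicle 2531 and young vehicle 2526. Meningeal markers had mean deviations of -0.62 in young LPS 2573, -1.10 in aged vehicle 2531 and 1.38 in young vehicle 2526, and CA1 pyramidal markers had -1.54, -1.35 and 0.74 in the same libraries. Their part in the members' levels was not tested. Without young vehicle 2526 and 2572, the median r in DG was 0.26, with 0.72 among ATPases and 0.35 in the beta ring.

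**Figure D4:**
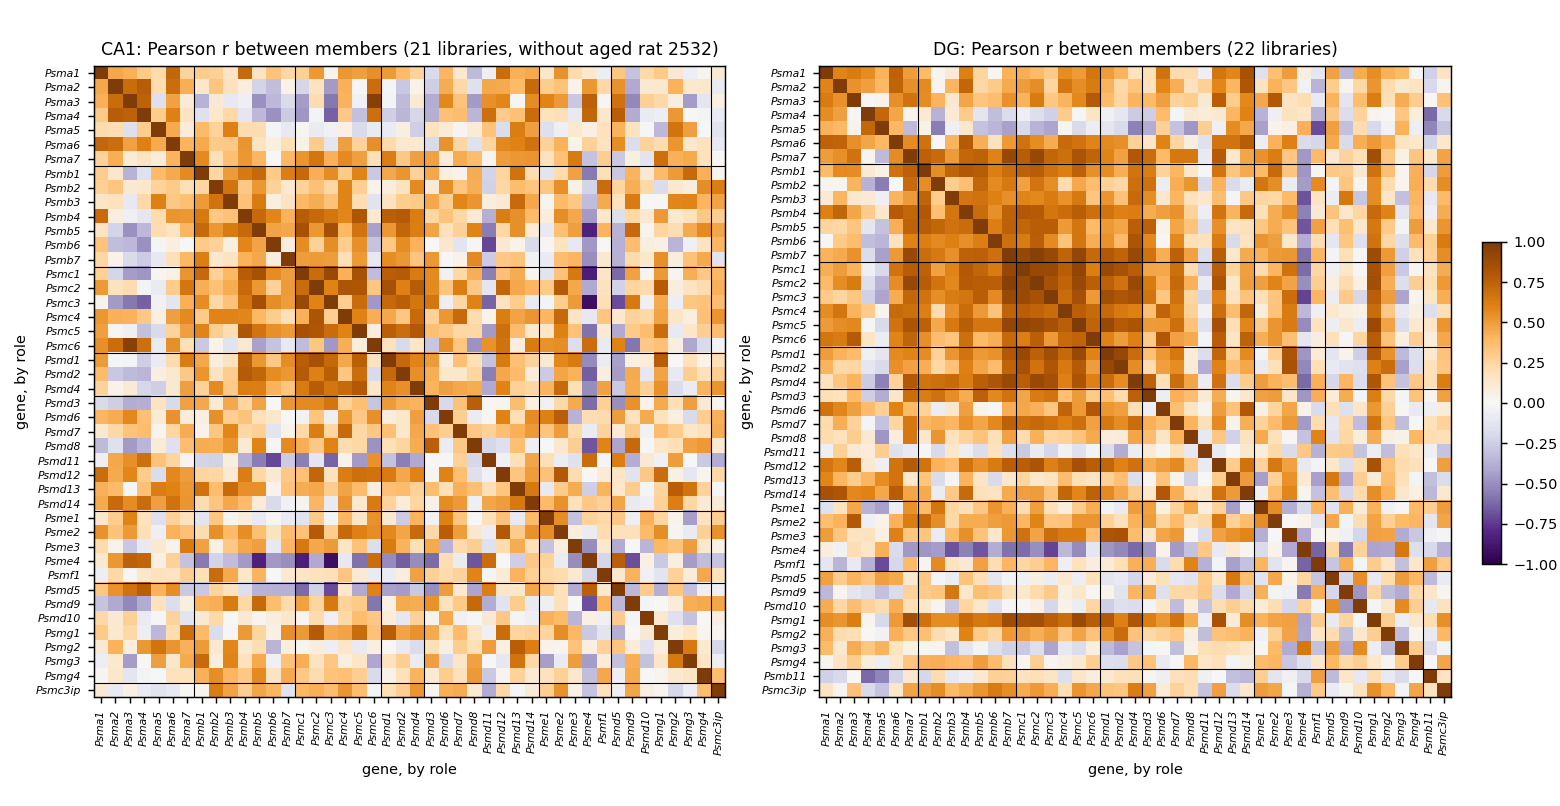
Pearson r between the log2 values of every pair of members, in CA1 over 21 libraries without aged 2532 (left) and in DG over 22 libraries (right), with genes ordered by role and lines parting the roles; orange is positive and purple negative. The beta ring, the ATPase ring and the base form an orange block in DG, and Psme4 is purple against that block in both regions.

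Genes that work with the proteasome but carry other symbols were called in the same comparison. Of 14 such genes listed, 10 were tested in CA1, and for young LPS against aged vehicle 4 were called, where 8.73% of all genes were: Adrm1, a ubiquitin receptor of the regulatory particle, was higher (log2 change 0.68, SE 0.20), and its partner deubiquitinase Uchl5 (-0.72, SE 0.18), the proteasome-bound deubiquitinase Usp14 (-0.61, SE 0.16) and the ubiquitin ligase Ube3a (-0.92, SE 0.27) were lower, each at limma adjusted p = 0.0490. Without aged 2532 the changes were 0.42, -0.59, -0.50 and -0.60 with limma adjusted p of 0.119 to 0.122, so none was called. Of 17 tested genes for ubiquitin and its activation, 4 (beside the same background of 8.73%) were called lower in young LPS, Uba6 (-0.88), Ube2k (-0.60), Skp1 (-0.68) and Cul1 (-0.46), which encode an activating enzyme, a conjugating enzyme and 2 parts of a ubiquitin ligase. Without aged 2532, when no gene of the table was called, their changes were -0.66, -0.40, -0.43 and -0.42. Of 9 genes for the transcription of proteasome genes and 11 shuttle and unfolding factors, 0 were called by limma in any comparison within a region; 3 and 2 of them had an unadjusted p below 0.05 for young LPS against aged vehicle in CA1, where 35.8% of all genes did.

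The immunoproteasome genes Psmb8, Psmb9 and Psmb10, which replace the catalytic beta subunits in immune cells and are left out of the members, were not called either. Over these 3 genes, for LPS against young vehicle, the log2 changes lay between -0.09 and 0.18 in CA1 and between -0.60 and -0.24 in DG, with a smallest limma adjusted p of 0.753 in CA1 and 0.663 in DG.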

How the data were processed

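The authors deposited normalized read counts, 1 table per region with 22 libraries each, a signal of gene read counts divided by a size factor per library. The submitters' processing notes name STAR, Partek, DESeq2 and the rat build rn6, with no versions; how reads were assigned to genes and whether strand was used is not given in the sources used here. Values were whole multiples of 1 step per library (within 0.1 of a read for 99.7% of values in CA1 and for all but 11 genes in DG), so reads were recovered for count tests; fractions occurred in 240 genes in CA1. The 2 regions were normalized separately, and no level was compared across them.

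Tests on log2(value + 1) took the genes that reached 10 in 6 or more of a region's libraries, with 3 groups in 1 limma fit (R 4.3.3, limma 3.58.1) and Benjamini-Hochberg adjustment over all genes tested. A called gene had an adjusted p below 0.05. A log2 change is on this scale and understates the change of low genes. Groups came from the labels; each library is 1 rat, and depth per library is given with the results. The LPS and age effects were compared between regions on CA1 minus DG within each rat. The pairing comes from the labels, which place both regions of a rat in 1 hippocampus. Deviations of the 2 regions correlated with a median r of 0.05, over 0.1 in 8 of 22 rats. The best-matching DG library of a CA1 library came from the same rat for 1 of 22 rats, so the values themselves do not show the pairing. No 2 libraries were alike within counting noise (lowest chi-square per gene 4.59 in CA1 and 6.64 in DG).

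Alternatives were pseudocounts of 5 and 0.25, no filter, a mean of at least 50, TMM, fits of 2 groups, library weights, the leading digits of the rat numbers (24, 25 or 27) or a dissection score as a term, edgeR 4.0.16 and DESeq2 1.42.0 on recovered reads, fits without each library, and the replicate block. One alternative, DG without young vehicle 2526 and 2572, was chosen after seeing the data. Named with full statistics were all members past the threshold, or the 4 smallest p where fewer passed. The members and gene lists were chosen with earlier results of these data known. The fits were tested on simulated data.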

Additional observations from a re-analysis of the deposited data

Results flagged for a closer look

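Of 267 combinations of a member and a group, 50 held a library that lay further from its group than Dixon's 95% critical value for the gap over the range, a limit that chance passes in about 1 of 20 groups. In CA1, 19 of them were aged vehicle 2532, which stood above the other 5 aged libraries with normalized reads of 1164 for Psma1, 2937 for Psma3, 1453 for Psma5, 1898 for Psmb2, 2532 for Psmc6, 2116 for Psmd11, 1734 for Psmd14, 2655 for Psmd3, 878 for Psmd5, 2615 for Psmd6, 3633 for Psmd7, 2256 for Psme4 and 737 for Psmg1. The same library stood below the others with 1071 for Psma7, 951 for Psmc4, 820 for Psmc5, 570 for Psmd13, 1723 for Psmd2 and 576 for Psmd8. Members of the alpha ring, the ATPase ring and the lid appeared on both sides. Over the 22 CA1 libraries, aged vehicle 2532 was at an extreme for 58.9% of all genes tested. No share of all genes past Dixon's limit is given here, and members varied together, so the 50 are not set against genes in general. Of the other CA1 libraries, young LPS 2547 was high with 219 for Psmg2 and young LPS 2573 low with 1324 for Psmb7. Young vehicle 2523 was high with 2430 for Psma7, 1875 for Psme3 and 574 for Psmg1, young vehicle 2572 was high with 909 for Psmb2, 140 for Psmb6 and 124 for Psmc3ip, and young vehicle 2526 was low with 1057 for Psmd13.

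In DG, the deviating values were nearly all high and came from 1 library of each group. Young LPS 2573 had 2472 for Psmb7, 4034 for Psmc1, 3203 for Psmc3 and 4111 for Psmd1. Aged vehicle 2531 had 2059 for Psma7, 2414 for Psmb7, 3986 for Psmc1, 1542 for Psmc2, 2941 for Psmc3, 2611 for Psmc5, 3378 for Psmd1, 1636 for Psmd12, 1708 for Psmd4 and 546 for Psmg1. Young vehicle 2526 had 1209 for Psmb2, 3059 for Psmb5, 127 for Psmb6, 4461 for Psmc3, 3605 for Psmd1 and 2264 for Psmd7. The ATPase gene Psmc3 and the base scaffold gene Psmd1 were high in all 3 of these libraries. The low values in DG were 947 for Psmb3 in aged vehicle 2420 and 275 for Psmg3 in aged vehicle 2532.

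The contrast of young LPS with aged vehicle differed between CA1 and DG, by the limma test of CA1 minus DG within each rat, for Psmb6 (difference 1.73, adjusted p = 0.0382), Psmc6 (-0.79, adjusted p = 0.0380), Psmd9 (0.62, adjusted p = 0.0482) and Psmg3 (0.58, adjusted p = 0.0413), and for none of them without rat 2532.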

How the results depend on the processing

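No named log2 change passed the threshold with the opposite sign under any alternative run. The sign of the members' median was not stable in DG or for the difference between regions, as given below. For young LPS against aged vehicle in CA1, limma called 4 members; the count was 0 with no filter on low values, with TMM scaling and with only the 2 groups in the fit, 10 with library weights, 8 with the number series of the rats as a term, 7 by edgeR and 8 by DESeq2. Leaving out 1 library in turn gave 0 to 8. The count was 0 without young LPS 2404, 2408, 2527, 2543 or 2717, without aged vehicle 2415, 2420, 2531 or 2532, and without young vehicle 2410, 2526, 2571, 2722, 2728 or 2731; it was 7 or 8 without young LPS 2403, 2547 or 2573, aged vehicle 2411 or 2412, or young vehicle 2523. Over the same settings the calls among all genes were 3 with no filter, 4 with TMM scaling, 0 with 2 groups, 3496 with library weights, 2910 with the number series, 2144 by edgeR and 3263 by DESeq2, against 1302 in limma. Among the fits without 1 library, calls among all genes are given here only for aged 2532, where they were 0. The causes were not tested.

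For age in CA1 library weights gave 1 call, Psmd9, against 0, where 2.03% of all genes were called. For the difference between CA1 and DG in young LPS against aged vehicle, 4 members were called (8.98% of all genes). The count was 6 with no replicate block (13.1% of all genes) and 6 with the rat as a random replicate block (15% of all genes). The replicate block changed no other count of called members. Leaving out 1 rat in turn gave 0 to 7: 0 without young LPS 2404, 2408 or 2543 or aged vehicle 2415, 2420, 2531 or 2532, 1 without young LPS 2527 or 2573, 2 without young vehicle 2728 or 2731, and 7 without young vehicle 2526. Of these fits, calls among all genes are given here only for that without rat 2532, with 1 of 14637. All other counts of called members stayed at 0. Leaving out 1 library in turn, the median change of the members in CA1 ran from -0.11 to -0.06 for LPS against young vehicle, from -0.09 to -0.04 for age and from -0.09 to -0.00 for young LPS against aged vehicle. In DG the median ran from -0.08 to 0.01, from -0.06 to 0.01 and from -0.04 to 0.03 in the same order. For CA1 minus DG it ran from -0.11 to 0.01, from -0.13 to 0.02 and from -0.00 to 0.08. The ranges in DG and for CA1 minus DG thus spanned 0. Counted over named members and alternatives, 988 values kept their side of the threshold, 115 lost a call and 1 gained one; for the called genes of the other lists, 216 kept it and 198 lost it.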
